A study of Mus musculus with 6 samples.

Results

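The 50 genes described here encode enzymes that break down amino acids or move their carbon and methyl groups through one-carbon metabolism. They were chosen by symbol, with earlier results of these data known, and each of the 50 symbols was found on 1 row of the tables, which hold 23282 rows. Kidney RNA was measured in a pair of inbred laboratory strains, C57BL/6 (here B6) and BALB/c, in 3 mice each, with 1 library per mouse. No treatment is named for either strain. Age, sex, substrain and diet are not among the labels, and the 2 strains carry no other stated difference. Of the 50 genes, 49 passed the filter on low values and were tested; the exception was Amt.

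The kidney takes up filtered amino acids in the proximal tubule and is, with the liver, a main site of their breakdown. Branched-chain amino acids lose their amino group and are then decarboxylated by a mitochondrial complex, and valine and isoleucine end as propionyl-CoA, which a carboxylase and a mutase turn into a citric acid cycle intermediate. Tyrosine, tryptophan, proline and the D-amino acids each have their own oxidising enzymes. Glycine and serine give one-carbon units to folate, while betaine and folate return methyl groups to homocysteine, which is otherwise drawn off to cysteine.

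All 10 kidney marker genes were present, among them Umod of the thick ascending limb (1608 to 2347 CPM, a gene's reads scaled to a common library total). Of 10 adrenal markers, 7 were at 0 reads in all 6 libraries, Cyp11b1 of the adrenal cortex and Th of the medulla included. The others were Star, Chga and Cyp11a1. Star had 25 to 35 reads in the B6 libraries and 19 to 52 in the BALB/c libraries. Chga had 0 reads in B6 and 7 and 3 in BALB/c replicates 2 and 3, and Cyp11a1 had 1 read, in BALB/c replicate 2. The Y-linked genes Uty, Kdm5d and Eif2s3y had 0 reads in all 6 libraries, Ddx3y had at most 8 reads, and Xist, whose exons overlap those of Tsix, was higher in BALB/c without overlap (104 to 164 CPM in B6 and 188 to 193 in BALB/c, limma adjusted p = 0.00444, or 0.163 when the variance prior had no trend). Of 11 tested kidney genes known to differ between the sexes, 1 was higher and 3 lower in BALB/c; Cyp4a12a, the higher one, had 4.18 to 5.38 CPM in B6 and 61.3 to 109 in BALB/c. The summed CPM of 20 proximal tubule markers was 12929 to 13357 in B6 and 11366 to 13056 in BALB/c, and 1 of them was higher and 3 lower in BALB/c. The 7 markers of the first segment (S1) summed to 2027 to 2387 and 2614 to 2807 CPM, with 2 higher and 1 lower, and the 9 markers of the third segment (S3) to 649.9 to 667 and 553 to 649.6 CPM, with 1 higher and 2 lower. The S1 sum largely followed 1 gene, Slc5a12, with 297 to 431 CPM in B6 and 844 to 876 in BALB/c. Only 3 of the 7 S1 markers had a log2 fold of BALB/c over B6 above 0. The 9 immune cell markers summed to 70.3 to 95.3 and 131 to 156 CPM, with 2 higher, and 10 liver genes to 191 to 215 and 137 to 163 CPM, with 2 lower. Most of the immune sum was Csf1r, with 54.0 to 73.9 CPM in B6 and 103 to 133 in BALB/c. Of 5 tested immune markers 4 had a fold above 0. The 7 blood cell genes summed to 4581 to 5601 CPM in B6 and 2909 to 5303 in BALB/c, with 1 lower and 0 with a fold above 0. Among 8 housekeeping genes, 2 were lower and 0 higher in BALB/c. No enzyme described here is among these markers, though Bcat1 below is an S3 marker. The part of these shifts in the results below was not tested, and in bulk tissue fewer cells of a type and less RNA per cell cannot be told apart. B6 replicate 2 stood apart from the other B6 libraries: the fat cell genes Cfd and Adipoq had 182 and 33 reads in it, against at most 8 and 1 in the other 2, while Akr1c18, an aldo-keto reductase gene, had 303 CPM against 891 and 992. The fat cell gene Cidec had 0 reads in it. In BALB/c, replicate 1 had 71 Cfd and 42 Cidec reads, against at most 28 and 0 in the other 2. Where a call on a gene described here depends on B6 replicate 2, this is said, with the value without it or the highest over the libraries left out.

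Of the 49 tested enzymes 14 differed between the strains, 8 of them higher and 6 lower in BALB/c (adjusted p under 0.05 by limma, adjusted by Benjamini-Hochberg over all 13317 tested genes). That is 28.6% of the enzymes, where the same rule called 9.09% of all genes and 11.3% of the 8715 genes whose mean reached 10 CPM. The enzymes and the other pathway genes below were chosen with earlier results of these data known, and no test compared these shares. By direction, 4.17% of all genes were higher and 4.93% lower, or 5.09% and 6.16% at this mean or above it. The median log2 fold of the 49, BALB/c over B6, was -0.05, beside 0.0023 over all genes, and the median size of a fold regardless of sign was 0.21 beside 0.22 over all genes and 0.18 over those with at least that mean, which 48 of the enzymes reached. The strains were without overlap in CPM for 16 of the 49, where this held for 25.4% of all genes, and for 12 of the 14 called. Inmt, Hpd and Glul differed by at least 1 on the log2 scale. Among the 35 enzymes not called, folds lay between -0.46 and 0.32, and 24 were smaller than 0.2 in either direction. The summed CPM of all 50 enzymes was 8809.8 to 9244 in B6 and 8288 to 9161 in BALB/c, ranges that overlapped. Of 95 other tested genes of the same pathways, listed apart from the 50, 12 were called (12.6%), 8 higher and 4 lower. A variance prior that did not follow the expression level left 7 of the 14 calls, 3 higher and 4 lower: Bckdhb, Pccb, Dpep1, Inmt, Dao, Gldc and Glul. Where a call is said below to end or change under another setting, the value in parentheses is the limma adjusted p there, and folds are log2 folds of BALB/c over B6.

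**Figure D1:**
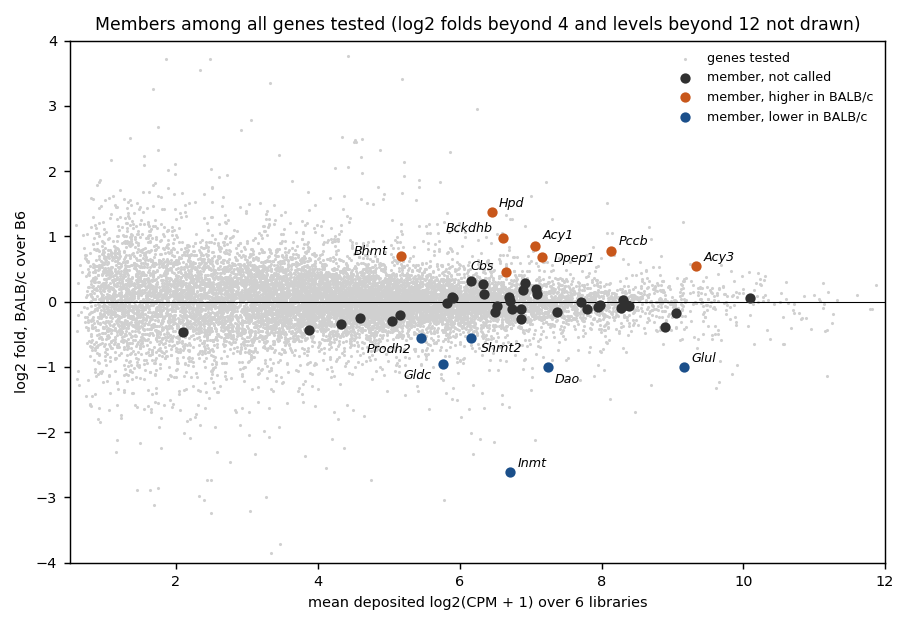
Log2 fold of BALB/c over B6 (vertical axis) against the mean deposited log2(CPM + 1) over 6 libraries (horizontal axis) for the 13317 genes tested (small grey points) and the 49 tested enzymes (large points; orange higher and blue lower in BALB/c, black not called). Inmt lies far below the others, and most enzymes lie near 0.

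The 5 called genes with the smallest p are shown by the bases before their start sites, since both directions are among them. The windows come from RefSeq promoters on GRCm38.p6, which is C57BL/6J sequence; BALB/c sequence was not analysed here. They run 5′ to 3′ on the gene's strand, hold 197 to 250 bases and end before the first transcribed base of either RefSeq or GENCODE. Capitals mark matches, on either strand, to TATAAA (bound by the TATA-binding protein), CCAAT (bound by NF-Y), GTTAAT (a half-site of the tubule factor HNF1), CACGTG (the E-box) and CAAAGTCCA (a core of HNF4).
Inmt, lower in BALB/c, chr6:55175044-55175240, minus strand: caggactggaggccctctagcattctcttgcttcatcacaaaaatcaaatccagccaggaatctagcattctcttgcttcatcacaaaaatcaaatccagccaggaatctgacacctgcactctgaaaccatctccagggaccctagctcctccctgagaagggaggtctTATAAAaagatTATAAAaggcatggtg
Dao, lower in BALB/c, chr5:114003485-114003702, plus strand: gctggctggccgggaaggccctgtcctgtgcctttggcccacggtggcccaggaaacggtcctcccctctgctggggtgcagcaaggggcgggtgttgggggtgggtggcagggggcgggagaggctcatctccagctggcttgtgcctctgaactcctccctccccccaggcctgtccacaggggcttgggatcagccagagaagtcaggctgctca
Glul, lower in BALB/c, chr1:153899679-153899928, plus strand: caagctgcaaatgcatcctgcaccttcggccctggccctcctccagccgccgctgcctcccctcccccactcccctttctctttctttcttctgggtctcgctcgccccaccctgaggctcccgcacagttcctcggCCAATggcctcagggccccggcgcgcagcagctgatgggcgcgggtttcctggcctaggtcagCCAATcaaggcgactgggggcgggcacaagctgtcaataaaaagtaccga
Bckdhb, higher in BALB/c, chr9:83924887-83925136, plus strand: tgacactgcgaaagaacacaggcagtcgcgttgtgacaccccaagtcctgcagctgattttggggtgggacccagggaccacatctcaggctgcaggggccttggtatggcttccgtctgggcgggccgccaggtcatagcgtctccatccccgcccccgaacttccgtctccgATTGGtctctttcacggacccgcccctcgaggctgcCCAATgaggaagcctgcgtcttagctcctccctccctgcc
Pccb, higher in BALB/c, chr9:101034899-101035134, minus strand: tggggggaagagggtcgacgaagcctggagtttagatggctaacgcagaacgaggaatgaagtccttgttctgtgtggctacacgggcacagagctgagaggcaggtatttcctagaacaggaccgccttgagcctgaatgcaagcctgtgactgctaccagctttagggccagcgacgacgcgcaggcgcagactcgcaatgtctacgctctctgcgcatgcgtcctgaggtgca

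Inmt held TATAAA 2 times, Bckdhb and Glul each held CCAAT 2 times, and the windows of Dao and Pccb held none of the 5 motifs. Promoters were found for 46 of the 50 enzymes. Over the full 250 bases before the RefSeq start, CCAAT was in 45.7% of the 46 and in 33.8% of all 32851 windows, TATAAA in 15.2% and 12.4%, GTTAAT in 8.70% and 6.43%, and CACGTG in 8.70% and 6.02%. CAAAGTCCA was in 2 of the 46 and in 0.384% of all windows. Among the 14 called genes CCAAT was found in 6, 3 from each direction. TATAAA was in 1 higher and 1 lower gene, CACGTG in 2 higher and 0 lower, GTTAAT in 0 higher and 1 lower, and CAAAGTCCA in none.

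Of the 11 enzymes of branched-chain amino acid and propionate breakdown, 2 were higher in BALB/c, 0 were lower and 9 were not called (median log2 fold 0.01). The 2 are single subunits of enzymes built from several. Bckdhb encodes the beta subunit of the decarboxylase in the branched-chain ketoacid dehydrogenase (BCKDH) complex, the committed step of the pathway (chromosome 9, 83925145 to 84124240, GRCm38). It had 67.0, 73.9 and 65.8 CPM in the B6 libraries and 131, 141 and 138 CPM in the BALB/c libraries. Every BALB/c library was above every B6 library, with means of 68.9 ± 4.37 CPM for B6 and 137 ± 5.13 CPM for BALB/c (SD, n = 3), and a log2 fold of 0.98 ± 0.11 (SE, n = 3 per strain, limma adjusted p = 1.11e-06). The alpha subunit gene Bckdha had 57.4, 61.1 and 54.7 CPM in the B6 libraries and 56.7, 56.5 and 67.1 CPM in the BALB/c libraries, overlapping ranges and a log2 fold of 0.05 (95% interval -0.21 to 0.32, limma adjusted p = 0.868). The last 300 bases of Bckdha are shared in full with B3gnt8 on the opposite strand, so its reads may belong to either gene. Dbt, the acyltransferase core of the complex, had 127, 132 and 122 CPM in the B6 libraries and 106, 99.2 and 111 CPM in the BALB/c libraries. The B6 libraries were all above the BALB/c libraries, but the log2 fold of -0.27 did not pass the test (limma adjusted p = 0.119). Dld, the lipoamide dehydrogenase that BCKDH shares with other complexes, had a log2 fold of 0.04 (adjusted p = 0.889), its kinase gene Bckdk 0.17 (adjusted p = 0.641) and its phosphatase gene Ppm1k 0.01 (adjusted p = 0.976) by limma.

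Pccb encodes the beta subunit of propionyl-CoA carboxylase (chromosome 9, 100982032 to 101034898). It had 209, 227 and 205 CPM in the B6 libraries and 399, 344 and 361 CPM in the BALB/c libraries. The strains did not overlap, with means of 214 ± 11.5 CPM for B6 and 368 ± 28.1 CPM for BALB/c (SD, n = 3), and a log2 fold of 0.78 ± 0.09 (SE, n = 3 per strain, limma adjusted p = 3.14e-06). Pcca, the biotin-carrying alpha subunit, had 83.1, 72.0 and 76.4 CPM in the B6 libraries and 76.9, 94.7 and 79.3 CPM in the BALB/c libraries, overlapping ranges and a log2 fold of 0.11 (95% interval -0.14 to 0.36, limma adjusted p = 0.668). Further along the route, the epimerase gene Mcee had a log2 fold of 0.26 (adjusted p = 0.0938) and the methylmalonyl-CoA mutase gene Mut 0.02 (adjusted p = 0.933), also by limma. Whether Bckdhb and Pccb differed from their partner subunits in fold was not tested. Of the remaining members, Hibadh of valine breakdown, which had the most reads in the group, had 338, 329 and 335 CPM in the B6 libraries and 306, 313 and 349 CPM in the BALB/c libraries and a fold of -0.05 (limma adjusted p = 0.812). The leucine enzymes Ivd, Mccc1 and Mccc2 had folds of -0.16, 0.01 and -0.30, and Hibch of valine breakdown had a fold of -0.26, with limma adjusted p of at least 0.317. Of 21 other genes of this pathway 1 was higher in BALB/c and 0 lower. This was Bcat1, the cytosolic branched-chain aminotransferase, which had 19.6, 6.05 and 10.2 CPM in the B6 libraries and 35.6, 37.7 and 32.8 CPM in the BALB/c libraries, and a log2 fold of 1.63 ± 0.27 (SE, n = 3 per strain, limma adjusted p = 1.90e-04); its call ended with no trend in the variance prior (0.0619).

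**Figure D2:**
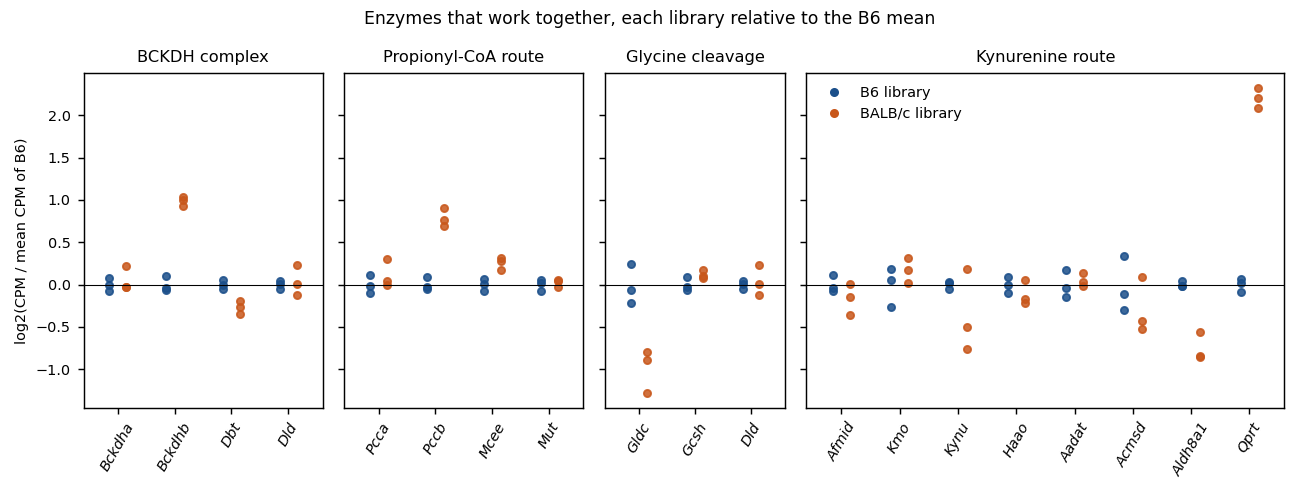
Level of each enzyme gene in each library as the log2 ratio of its CPM to the mean CPM of the B6 libraries (vertical axis), for enzymes that form a complex or follow each other in a route; blue points are B6 and orange points BALB/c libraries. In the BCKDH complex and the propionyl-CoA route 1 subunit gene stands above the others in BALB/c, in glycine cleavage Gldc lies below, and in the kynurenine route Qprt lies above and Aldh8a1 below. Amt is left out because B6 had 0 reads.

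Of the 7 enzymes of tryptophan and amine metabolism, 1 was lower in BALB/c, 0 were higher and 6 were not called. Inmt, which methylates tryptamine and other amines, had the largest difference of the 49 (chromosome 6, 55170626 to 55175043). It had 263, 259.8 and 253 CPM in the B6 libraries and 40.1, 47.1 and 37.8 CPM in the BALB/c libraries. The B6 values were 6.21-fold higher in the mean, the strains were far apart and libraries of a strain were close, with means of 258 ± 5.42 CPM for B6 and 41.6 ± 4.84 CPM for BALB/c (SD, n = 3), and a log2 fold of -2.61 ± 0.11 (SE, n = 3 per strain, limma adjusted p = 6.18e-14). Without any 1 library its limma adjusted p stayed at or below 1.28e-09. The build named for both strains is the B6 reference, and the part of mismatched BALB/c reads in this or any other lower value was not tested. No part of the last 300 bases of Inmt is shared with another gene.

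The kynurenine route, which turns tryptophan into NAD precursors, was measured through its members from Afmid onwards. Aadat, an aminotransferase that makes kynurenic acid and also acts in lysine breakdown, had the most reads of the group, with 1209, 968 and 1047 CPM in the B6 libraries and 1185, 1062 and 1098 CPM in the BALB/c libraries. Its ranges overlapped and its fold was 0.06 (limma adjusted p = 0.794). Kmo, the hydroxylase, had a log2 fold of 0.18, Kynu, the hydrolase, -0.34, Haao, the dioxygenase that makes the precursor of quinolinate, -0.11, and Afmid, the formamidase, -0.16, with limma adjusted p between 0.404 and 0.640. Afmid shares 98.0% of its last 300 bases, by 50-base words, with Gm20708. Ddc, the decarboxylase that makes dopamine and amines in the tubule, had 383, 317 and 324 CPM in the B6 libraries and 319, 352 and 306 CPM in the BALB/c libraries and a log2 fold of -0.06 (limma adjusted p = 0.774). Of 9 other tested genes of tryptophan and lysine breakdown, 1 was higher and 1 lower. Qprt, which commits quinolinate to NAD, had 17.5, 16.9 and 15.7 CPM in the B6 libraries and 83.4, 71.3 and 76.9 CPM in the BALB/c libraries, and a log2 fold of 2.14 ± 0.15 (SE, n = 3 per strain, limma adjusted p = 4.30e-10), with 23.5% of its words shared with other genes. Aldh8a1, an aldehyde dehydrogenase of the branch that oxidises the precursor of quinolinate further, had 334, 322 and 321 CPM in the B6 libraries and 182, 179 and 219.7 CPM in the BALB/c libraries, and a log2 fold of -0.75 ± 0.10 (SE, n = 3 per strain, limma adjusted p = 1.02e-05). Neither gene's strains overlapped. Acmsd, the decarboxylase at that branch point, showed a log2 fold of -0.26 (limma adjusted p = 0.446). Of the oxygenases that open the route, Tdo2 and Ido1 had at most 5 reads in a library, while Ido2 had 29 to 54 and a log2 fold of -0.05 (adjusted p = 0.958).

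Among the 3 tyrosine enzymes, 1 was higher in BALB/c and 2 were not called. Hpd, hydroxyphenylpyruvate dioxygenase (chromosome 5, 123171807 to 123182727), had 40.3, 109 and 34.3 CPM in the B6 libraries and 165, 95.7 and 172 CPM in the BALB/c libraries. B6 replicate 2 was above BALB/c replicate 2, so the strains overlapped, and the spread was wide, with means of 61.1 ± 41.4 CPM for B6 and 144 ± 42.1 CPM for BALB/c (SD, n = 3), and a log2 fold of 1.37 ± 0.27 (SE, n = 3 per strain, limma adjusted p = 0.00134). Without B6 replicate 2 the fold was 1.88 (limma adjusted p = 8.71e-09). Its call ended with robust variances (0.272), with no trend (0.167) and with no filter beyond 1 read (0.0574). Hgd, the next enzyme and the one with the most reads of the 3, had 249.7, 266 and 251 CPM in the B6 libraries and 246, 235 and 259 CPM in the BALB/c libraries, a narrow and overlapping range and a fold of -0.05 (limma adjusted p = 0.809). Fah, the last enzyme of the pathway, had a log2 fold of 0.0013 (95% interval -0.22 to 0.23, limma adjusted p = 0.997). Of 6 other tested genes of phenylalanine and tyrosine metabolism, 0 were called by limma and 0 had an unadjusted p under 0.05.

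Of the 2 D-amino acid oxidases and of the 3 enzymes of proline and ornithine, 1 each was lower in BALB/c and 0 were higher. The lower oxidase was Dao, which acts in peroxisomes on neutral D-amino acids (chromosome 5, 114003703 to 114025682). It had 209, 194 and 239.5 CPM in the B6 libraries and 112, 97.0 and 110.4 CPM in the BALB/c libraries. No BALB/c library reached the B6 range, with means of 214 ± 23.2 CPM for B6 and 106 ± 8.29 CPM for BALB/c (SD, n = 3), and a log2 fold of -0.998 ± 0.11 (SE, n = 3 per strain, limma adjusted p = 6.31e-07). Ddo, the oxidase of acidic D-amino acids, had 17.0, 13.3 and 18.6 CPM in the B6 libraries and 15.5, 10.4 and 9.72 CPM in the BALB/c libraries, overlapping values and a log2 fold of -0.44 (95% interval -0.93 to 0.05, limma adjusted p = 0.290). Prodh2, which oxidises hydroxyproline (chromosome 7, 30493622 to 30513402), was also lower, with 52.2, 52.9 and 52.2 CPM in the B6 libraries and 44.5, 28.3 and 34.5 CPM in the BALB/c libraries. The strains did not overlap and the BALB/c libraries spread more, with means of 52.4 ± 0.440 CPM for B6 and 35.8 ± 8.18 CPM for BALB/c (SD, n = 3), and a log2 fold of -0.56 ± 0.16 (SE, n = 3 per strain, limma adjusted p = 0.0229). Leaving out any of 4 libraries, B6 replicate 1 or 3 and BALB/c replicate 2 or 3, ended that call (up to 0.148 by limma), as did fits with no trend (0.156) and with no filter beyond 1 read (0.0684). Prodh, which oxidises proline, had the opposite sign, with 66.6, 78.1 and 73.0 CPM in the B6 libraries and 93.8, 87.2 and 81.1 CPM in the BALB/c libraries. Its strains did not overlap, yet its log2 fold of 0.27 did not pass the test (limma adjusted p = 0.187). Oat, ornithine aminotransferase, had 269, 224 and 269 CPM in the B6 libraries and 243, 239.9 and 237 CPM in the BALB/c libraries and a log2 fold of -0.08 (limma adjusted p = 0.719). Of 13 other tested genes of proline, glutamate and alanine metabolism 0 were called by limma, and 2 had an unadjusted p under 0.05. Without B6 replicate 2, 1 of them, Asns of asparagine synthesis, was called lower, with a fold of -1.56 (0.0247) in place of -1.15 (adjusted p = 0.103).

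Of 5 tested enzymes of glycine, serine and folate metabolism, 2 were lower in BALB/c, 0 were higher and 3 were not called. Gldc, the decarboxylase that opens the mitochondrial glycine cleavage system (chromosome 19, 30098447 to 30175429), had 64.7, 89.5 and 71.9 CPM in the B6 libraries and 31.1, 40.4 and 43.3 CPM in the BALB/c libraries. All B6 libraries were above all BALB/c libraries, with means of 75.4 ± 12.8 CPM for B6 and 38.3 ± 6.40 CPM for BALB/c (SD, n = 3), and a log2 fold of -0.96 ± 0.15 (SE, n = 3 per strain, limma adjusted p = 1.21e-04). Gcsh, the lipoyl carrier protein of the same system, had 125, 128 and 139 CPM in the B6 libraries and 146, 138 and 139.6 CPM in the BALB/c libraries, the most reads of the group, and a fold of 0.11 (95% interval -0.10 to 0.32, limma adjusted p = 0.581). Amt, the aminomethyltransferase of the system, had 0 reads in each B6 library and 5, 5 and 4 reads in the BALB/c libraries. It was not tested. Against a floor of 3 reads over the 3 B6 libraries, the observed 14 BALB/c reads were 4.59-fold higher at the depths sequenced. The floor allows for counting error in B6 only. Counting error of the 14 reads and the spread between mice are not covered, so this is not a lower limit. Shmt2, the mitochondrial serine hydroxymethyltransferase, had 76.2, 103 and 81.5 CPM in the B6 libraries and 60.1, 49.4 and 66.1 CPM in the BALB/c libraries. Its strains did not overlap, with means of 86.8 ± 14.0 CPM for B6 and 58.6 ± 8.46 CPM for BALB/c (SD, n = 3), and a log2 fold of -0.56 ± 0.14 (SE, n = 3 per strain, limma adjusted p = 0.0101). That call ended without B6 replicate 2 (0.0603), without BALB/c replicate 2 (0.0774) and with no trend (0.151), and exons of Shmt2 overlap those of Ndufa4l2 on the other strand. Its cytosolic counterpart Shmt1 had 64.9, 55.5 and 50.7 CPM in the B6 libraries and 68.0, 53.4 and 58.1 CPM in the BALB/c libraries, overlapping values and a log2 fold of 0.07 (limma adjusted p = 0.838), and 52.9% of its last words are shared with Smcr8. Mthfd1, the cytosolic folate dehydrogenase, had a log2 fold of 0.08 (adjusted p = 0.807) by limma.

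Of 21 other serine, glycine and folate genes, 2 were higher and 1 lower in BALB/c. Ggh, which trims the glutamate tail of folates, had 23.9, 17.3 and 27.9 CPM in the B6 libraries and 33.9, 41.0 and 42.9 CPM in the BALB/c libraries, and a log2 fold of 0.76 ± 0.18 (SE, n = 3 per strain, limma adjusted p = 0.00738), and lost its call with no trend (0.1002). Psat1 of serine synthesis had 30.9, 34.7 and 30.2 CPM in the B6 libraries and 26.0, 16.0 and 17.4 CPM in the BALB/c libraries, and a log2 fold of -0.69 ± 0.19 (SE, n = 3 per strain, limma adjusted p = 0.0223). Leaving out 1 of 4 libraries, B6 replicate 1 or 2 and BALB/c replicate 2 or 3, ended its call (up to 0.114), which also fell away with no trend (0.124) and with no filter beyond 1 read (0.0684). Fpgs, which adds the glutamate tail, had 0.50 on the log2 scale (limma adjusted p = 0.0470), a call that ended without any of 5 libraries, all but B6 replicate 2 (up to 0.268), with no trend (0.270), with no filter beyond 1 read (0.144), with limma-voom (0.0638) and with the replicate block (0.0533). Exons of Fpgs overlap those of Eng.

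Betaine and sarcosine enzymes pass methyl groups from choline to homocysteine and folate, and of the 5 measured 1 was higher in BALB/c, 0 were lower and 4 were not called. Bhmt, which remethylates homocysteine from betaine (chromosome 13, 93616675 to 93637961), had 22.7, 41.8 and 21.2 CPM in the B6 libraries and 60.7, 39.3 and 37.4 CPM in the BALB/c libraries. B6 replicate 2 lay within the BALB/c range, so the strains overlapped, with means of 28.6 ± 11.5 CPM for B6 and 45.8 ± 12.9 CPM for BALB/c (SD, n = 3), and a log2 fold of 0.69 ± 0.21 (SE, n = 3 per strain, limma adjusted p = 0.0439). Without B6 replicate 2 the fold was 0.995 (9.51e-04); without B6 replicate 1, B6 replicate 3, BALB/c replicate 1 or BALB/c replicate 2 the call was lost (up to 0.276 by limma). It also ended with limma-voom (0.0550), the replicate block (0.0526), robust variances (0.0842), no filter beyond 1 read (0.172) and no trend (0.283), and 23.5% of its last words occur in other genes. Its neighbour Bhmt2, which takes the methyl group from S-methylmethionine, had 36.9, 39.2 and 36.6 CPM in the B6 libraries and 35.2, 26.3 and 36.4 CPM in the BALB/c libraries. The BALB/c values were all below the B6 values, by a log2 fold of -0.21 that did not pass the test (limma adjusted p = 0.496), and 33.3% of its last words occur in other genes. Dmgdh, dimethylglycine dehydrogenase, lies beside them, the 3 genes spanning 136 kb of chromosome 13, and had 58.7, 63.5 and 66.3 CPM in the B6 libraries and 79.2, 74.1 and 82.1 CPM in the BALB/c libraries. It did not overlap between the strains and showed a log2 fold of 0.32 (limma adjusted p = 0.107). Sardh, sarcosine dehydrogenase, had a log2 fold of 0.28 (adjusted p = 0.178), and 0.40 (0.0418) without B6 replicate 2. Pipox, a peroxisomal oxidase of pipecolate and sarcosine and the member of the group with the most reads, had 249, 205 and 236 CPM in the B6 libraries and 206, 196 and 234 CPM in the BALB/c libraries and a log2 fold of -0.12 (limma adjusted p = 0.563).

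In transsulfuration, which carries homocysteine to cysteine, the first enzyme was higher in BALB/c and the second was not called. Cbs, cystathionine beta-synthase (chromosome 17, 31608894 to 31637238), had 84.6, 91.5 and 79.2 CPM in the B6 libraries and 121, 115 and 115 CPM in the BALB/c libraries. The strains did not overlap, with means of 85.1 ± 6.20 CPM for B6 and 117 ± 3.79 CPM for BALB/c (SD, n = 3), and a log2 fold of 0.46 ± 0.11 (SE, n = 3 per strain, limma adjusted p = 0.00766). The call ended without BALB/c replicate 1 (0.0510) and with no trend (0.108), and 15.7% of its last words occur in other genes. Cth, cystathionine gamma-lyase, had 97.6, 107 and 78.2 CPM in the B6 libraries and 119.6, 76.0 and 78.7 CPM in the BALB/c libraries, overlapping values and a log2 fold of -0.06 (95% interval -0.38 to 0.25, limma adjusted p = 0.863). Of 17 other tested genes of methionine, choline and sulfur metabolism, 3 were higher and 2 lower. Csad, which makes the precursor of taurine, had 306, 299 and 284 CPM in the B6 libraries and 373, 397 and 417 CPM in the BALB/c libraries, and a log2 fold of 0.41 ± 0.09 (SE, n = 3 per strain, limma adjusted p = 0.00350). Sqrdl, which oxidises hydrogen sulfide in mitochondria, had 68.9, 72.4 and 59.8 CPM in the B6 libraries and 42.3, 41.5 and 39.3 CPM in the BALB/c libraries, and a log2 fold of -0.69 ± 0.13 (SE, n = 3 per strain, limma adjusted p = 0.00102). Ethe1, the next enzyme of sulfide oxidation, had the opposite sign, a log2 fold of 0.37 (adjusted p = 0.0165), Mtr, methionine synthase, had a log2 fold of -0.92 (adjusted p = 0.00784), and Mat2a, which makes S-adenosylmethionine and was added after its values were seen, had a log2 fold of 0.34 (adjusted p = 0.0172). Calls were lost without BALB/c replicate 1 for Ethe1 (0.0887), Mtr (0.0508) and Mat2a (0.127). That of Ethe1 also needed both B6 replicate 1 and BALB/c replicate 3, that of Mtr B6 replicate 3 and that of Mat2a BALB/c replicate 3. With no trend 4 of these 5, all but Sqrdl, lost their calls.

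Of the 4 enzymes of glutamate and aspartate, 1 was lower in BALB/c, 0 were higher and 3 were not called. The lower one was Glul, glutamine synthetase (chromosome 1, 153899944 to 153909723). It had 772, 1002 and 688 CPM in the B6 libraries and 377, 374 and 466 CPM in the BALB/c libraries. The highest BALB/c library was below the lowest B6 library, with means of 821 ± 163 CPM for B6 and 406 ± 51.9 CPM for BALB/c (SD, n = 3), and a log2 fold of -1.004 ± 0.12 (SE, n = 3 per strain, limma adjusted p = 1.88e-06). Over the libraries left out in turn its fold lay between -1.12 and -0.85, the latter without B6 replicate 2. The other 3 did not pass the test. Glud1, glutamate dehydrogenase, had 577, 633 and 477 CPM in the B6 libraries and 494, 477 and 521 CPM in the BALB/c libraries and a log2 fold of -0.17 (limma adjusted p = 0.352). The aspartate aminotransferases Got1 (cytosolic) and Got2 (mitochondrial) had log2 folds of -0.11 and a log2 fold of -0.10 (95% intervals -0.38 to 0.15 and -0.31 to 0.12, limma adjusted p = 0.689 and 0.667). Of the 3 enzymes of glycine conjugation and glyoxylate metabolism 0 were called by limma and 1 had an unadjusted p under 0.05. This was Glyat, which joins glycine to acyl groups, with 545, 423 and 701 CPM in the B6 libraries and 448, 457 and 352 CPM in the BALB/c libraries. Its strains overlapped and its fold was -0.39 (limma adjusted p = 0.0725), or -0.57 (9.50e-04) without B6 replicate 2, the lowest B6 library. Glyctk, glycerate kinase, whose last words are shared to 33.3% with other genes, had a log2 fold of 0.19 (adjusted p = 0.335), and Agxt2, a glyoxylate aminotransferase, had at most 56 reads in a library and a log2 fold of -0.46 (adjusted p = 0.495).

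Of the 4 enzymes that split acylated amino acids or dipeptides, 3 were higher in BALB/c, 0 were lower and 1 was not called (median log2 fold 0.62). Their summed CPM was 763 to 833 in B6 and 1056 to 1351 in BALB/c, without overlap. Most of that sum was Acy3, with 511 to 549 CPM in B6 and 676 to 891 in BALB/c. Such sums were without overlap in other groups as well. The branched-chain and propionate sum was higher in BALB/c. Those of D-amino acid, of glutamate and aspartate, and of glycine, serine and folate enzymes were lower. Acy1, the cytosolic aminoacylase that frees amino acids from their N-acetyl forms (chromosome 9, 106432981 to 106438319), had 93.0, 129 and 80.7 CPM in the B6 libraries and 191, 145 and 207 CPM in the BALB/c libraries. Its strains did not overlap, with means of 101 ± 24.8 CPM for B6 and 181 ± 32.0 CPM for BALB/c (SD, n = 3), and a log2 fold of 0.85 ± 0.14 (SE, n = 3 per strain, limma adjusted p = 3.02e-04). Acy3, which acts on acetylated aromatic amino acids and mercapturates (chromosome 19, 3986570 to 3990007), had 549, 537 and 511 CPM in the B6 libraries and 780.4, 676 and 891 CPM in the BALB/c libraries. Again no BALB/c library reached down to the B6 range, with means of 532 ± 19.6 CPM for B6 and 783 ± 107 CPM for BALB/c (SD, n = 3), and a log2 fold of 0.55 ± 0.10 (SE, n = 3 per strain, limma adjusted p = 5.10e-04). Both calls ended with no trend in the variance prior (0.0951 and 0.103), and 3.92% of the last words of Acy3 occur in Gm48931. Dpep1, the brush-border dipeptidase (chromosome 8, 123186242 to 123201812), had 112, 105 and 119.9 CPM in the B6 libraries and 159.9, 189.9 and 196 CPM in the BALB/c libraries, without overlap and with means of 112 ± 7.26 CPM for B6 and 182 ± 19.3 CPM for BALB/c (SD, n = 3), and a log2 fold of 0.69 ± 0.11 (SE, n = 3 per strain, limma adjusted p = 1.15e-04). Aspa, a relative of Acy3 that splits N-acetylaspartate, had 54.9, 61.4 and 51.3 CPM in the B6 libraries and 64.0, 44.5 and 57.8 CPM in the BALB/c libraries, overlapping values and a log2 fold of -0.02 (95% interval -0.32 to 0.27, limma adjusted p = 0.953). Of 8 other tested genes of glyoxylate, acyl and peptide metabolism, 1 was higher and 0 were lower. Without B6 replicate 2, Keg1, an acyltransferase gene of this list, was called lower, with a fold of -0.68 (4.92e-06) in place of -0.27 (adjusted p = 0.472). Asns and Keg1 were named after their values were seen. The higher gene was Pm20d1, which joins fatty acids to amino acids and splits them again, with 21.5, 22.2 and 21.1 CPM in the B6 libraries and 76.8, 79.1 and 87.4 CPM in the BALB/c libraries, and a log2 fold of 1.86 ± 0.14 (SE, n = 3 per strain, limma adjusted p = 1.39e-09).

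Several of the enzymes come in pairs with similar chemistry in another compartment or on another substrate. In 5 of 7 such pairs exactly 1 gene was called: Bhmt of Bhmt and Bhmt2, Prodh2 of Prodh and Prodh2, Dao of Dao and Ddo, Shmt2 of Shmt1 and Shmt2, and Acy3 of Acy3 and Aspa. Acy1 and Acy3 were both called, and of Got1 and Got2 neither was. Acy3 is in 2 of the 7 pairs. The difference in fold within a pair was not tested, and 1 gene called beside 1 not called does not show that their folds differ. How often this occurs in other pairs of genes was not tested. With no trend 1 pair, Dao and Ddo, still had 1 called gene, and with no filter beyond 1 read there were 3 such pairs. Leaving out any 1 library gave 2 to 4 in place of 5, with 2 without BALB/c replicate 2 and 3 without B6 replicate 1 or B6 replicate 3.

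**Figure D3:**
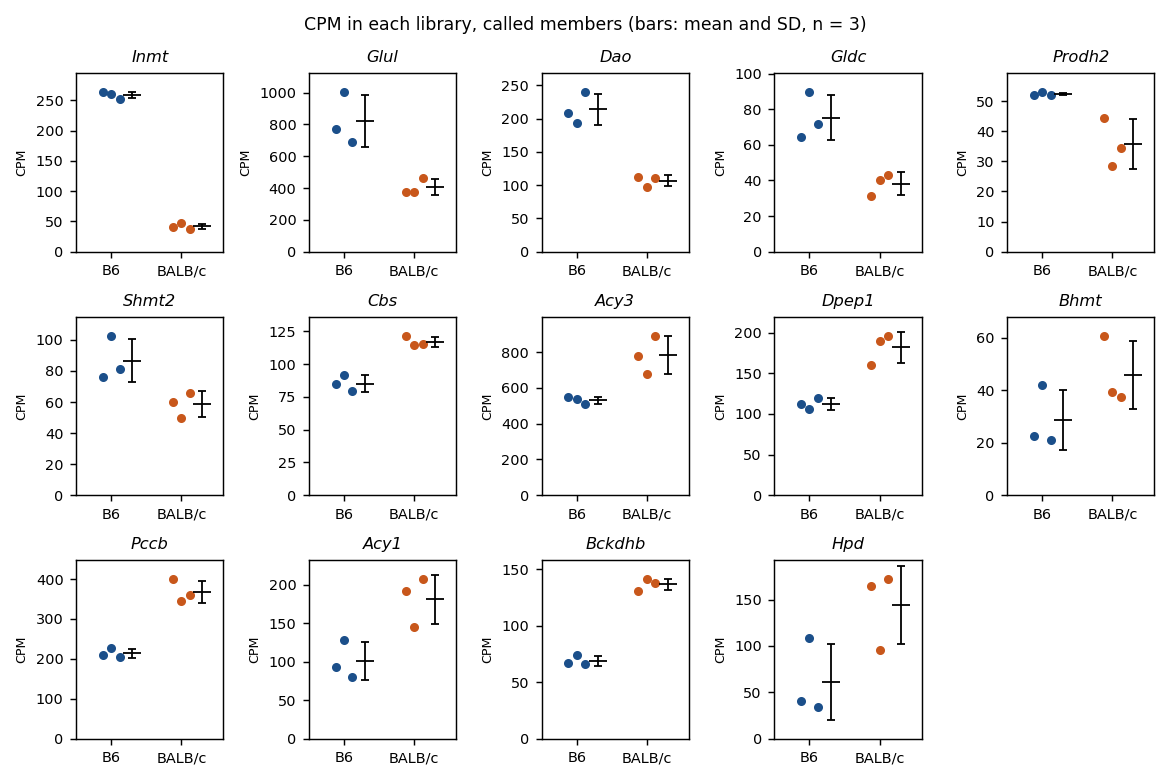
CPM in each library (vertical axes, each from 0) for the 14 called enzymes, ordered by fold; blue points are the 3 B6 and orange points the 3 BALB/c libraries, and bars give the mean and SD. Points of the strains overlap for Hpd and Bhmt and for no other of the 14.

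Within B6, replicate 2 had the highest CPM of the strain for 22 of the 49 tested enzymes and the lowest for 17. Within BALB/c, replicate 2 was the lowest for 31 and replicate 3 the highest for 26. Of the 14 calls, 10 held whichever library was left out, and those of Prodh2, Bhmt, Cbs and Shmt2 did not. Across all 16 alternatives 7 held: Bckdhb, Pccb, Inmt, Dao, Gldc, Glul and Dpep1. Leaving out B6 replicate 2 gave 15 calls, with Glyat and Sardh added and Shmt2 lost. Exons of Glul overlap those of Teddm2, and exons of Bhmt those of Gm15622, on the opposite strand, and the same holds for the exons of Bcat1, Csad, Ethe1 and Mat2a and another gene; whether reads were counted by strand is not stated, so the reads of such partners cannot be separated.

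**Figure D4:**
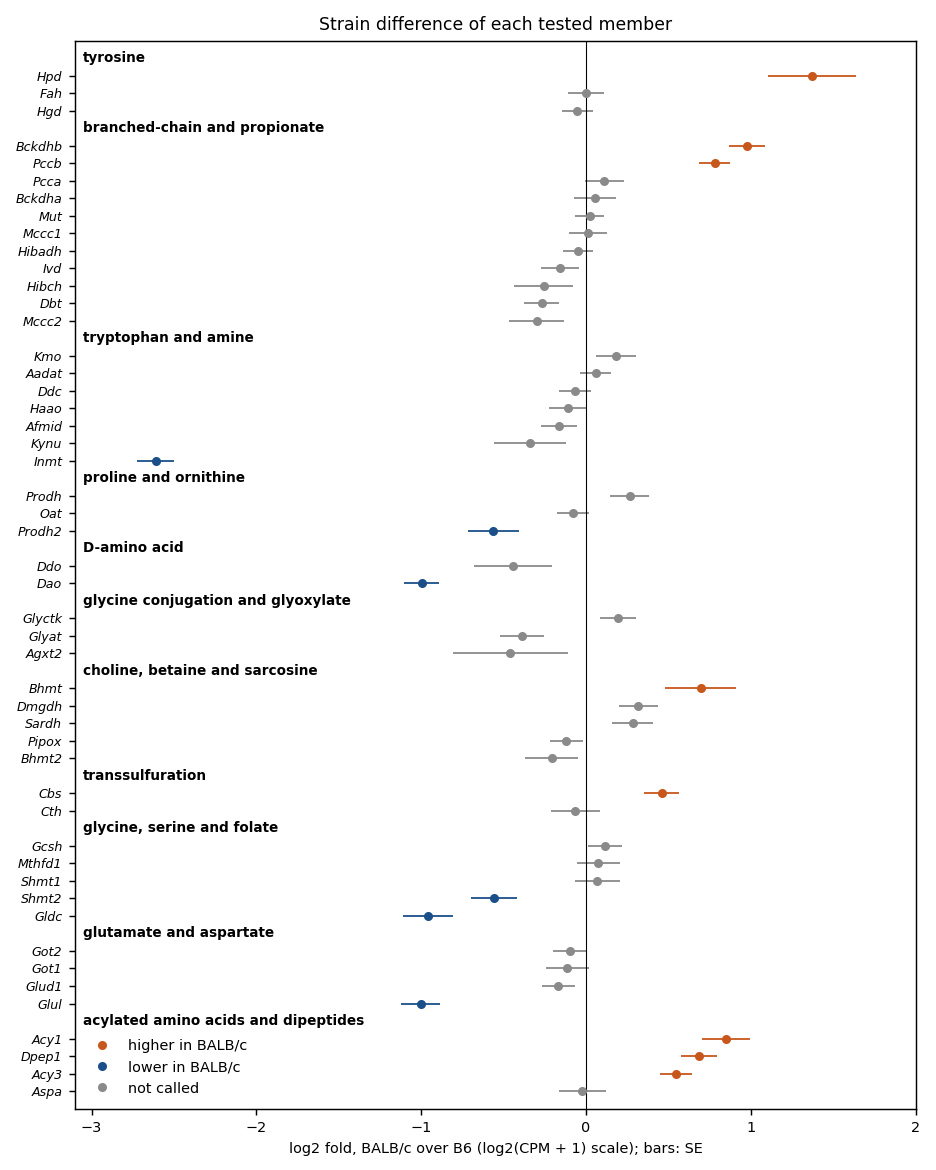
Log2 fold of BALB/c over B6 with its SE (horizontal axis, log2(CPM + 1) scale) for each of the 49 tested enzymes, grouped by role and ordered by fold within a group; orange is higher, blue lower and grey not called. Called enzymes of the acylated amino acid and dipeptide group lie above 0, those of the glycine, serine and folate group below it.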

How the data were processed

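Kidney RNA of 3 B6 and 3 BALB/c mice was made into Lexogen QuantSeq libraries after Trizol extraction, per the labels' protocols; the kit reads mainly the 3′ ends of transcripts, so values were not divided by gene length and levels are not compared between genes. Per the submitters' processing notes Bowtie2, bedtools and the build mm10 were used; for versions, annotation, strand and reads with several alignments, nothing is stated in those sources. The authors deposited log2 values with 3 decimals, which the values show to be log2(CPM + 1) up to a factor near 1 per library: with the log2 undone and 1 taken off, a library sums to between 980188 and 1043599, and, up to 20 reads, each value is a whole number of reads to within 0.1. Depth obtained from this was 8311156 to 10416236 reads per library, 1 read being worth 0.0968 to 0.118 CPM.

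Rows with a log2 value of at least 1 in at least 3 libraries were tested (13317) with limma 3.58.1 in R 4.3.3, strain as the only term, a variance prior that follows the level, two-sided tests and Benjamini-Hochberg adjustment. A fold is the BALB/c mean less the B6 mean of log2(CPM + 1), and changes of low genes are understated by it. The series' design text gives 3 mice per strain. The SEs, intervals and p-values of limma use a variance drawn toward that of genes at a similar level. That prior has 18.36 degrees of freedom beside 4 from the 6 libraries. They therefore do not measure the spread of a gene over these libraries alone, which the SD of the CPM gives for each strain. GENCODE M21 (GRCm38) gave positions and overlapping exons; words of 50 bases, 5 bases apart, in the last 300 bases of the longest coding transcript were looked up in all other transcripts. A gene was named with all its values when it was called, when its strains did not overlap at an unadjusted p under 0.05, or when it had the most reads of its role group; other pathway genes were named when called, up to 4 per list. Named outside this rule, after their values were seen, were Mat2a, Asns and Keg1, and, to complete a complex or route, Dld, Bckdk, Ppm1k, Mcee, Acmsd, Tdo2, Ido1 and Ido2. Of 113 such genes listed, 2 were not found in the tables. Simulated reads with known changes were used to check the test. They had 1 spread setting for all genes and no library set apart. Calls that depend on the variance prior or on B6 replicate 2 were therefore not checked by them. The enzymes and lists were chosen with earlier results of these data known. The alternatives were other filters, pseudocounts, scalings, variance priors, limma-voom, a replicate block and each library left out.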

Additional observations from a re-analysis of the deposited data

How the results depend on the processing

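With no trend in the variance prior, 493 genes were called in place of 1211, 7 of the 49 enzymes in place of 14 (3 in place of 8 higher and 4 in place of 6 lower), 4 of the other pathway genes in place of 12, and 1 gene pair in place of 5 had exactly 1 called gene. With no filter beyond 1 read that number of pairs was 3. Leaving out each library in turn gave 797 to 1138 calls over all genes (the lowest without BALB/c replicate 1), 11 to 15 among the enzymes, 6 to 9 higher and 4 to 6 lower, 8 to 13 among the other pathway genes and 2 to 4 pairs. Scaling to a trimmed mean, to the upper quartile or to total reads without the 45S row, and a pseudocount of 5 CPM, each gave 14 called enzymes, and limma-voom gave 13. Same-numbered libraries of the strains did not deviate together (correlations over genes of 0.01, -0.06 and -0.08). Whether same-numbered mice were handled together cannot be told from this. With the replicate block 977 genes and 13 enzymes were called. For the 36 named genes, 521 of 576 values under the alternatives kept their direction and side of the threshold, 53 lost a call, 1 gained one and 1 changed sign, Aadat, which was not called and lay between -0.015 (without B6 replicate 2) and 0.146 over the libraries left out. The cause of these changes was not tested. Amt and Agxt2 were the enzymes with the fewest reads.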

Other observations

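The genes around the enzymes were read from the same fit. Of 211 tested genes within 500 kb of the 14 called enzymes, 15 were called (7.11%), and of 314 within 500 kb of the 35 others, 28 (8.92%), where 9.09% of all genes were called; a gene near more than 1 enzyme was counted at each. Prodh2 had 5 called genes among 35, all 5 lower in BALB/c as Prodh2 was, among them Nphs1 and Atp4a. Acy1 had 6 among 18, 4 higher and 2 lower. Inmt had 2 among 7, 1 in each direction, Hpd had 1 among 18, in its own direction, and Bckdhb had 1 among 2, in the opposite one. These make up the 15, so that the other 9 called enzymes had no called neighbour in the window. The names and windows were chosen after the values were seen, and whether neighbouring calls are more frequent than elsewhere was not tested.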
